A study of Mus musculus with 16 samples.

Results

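Cells induced toward tenocytes from mouse induced pluripotent stem cells (iPSCs) were split at T9, the latest time point, by whether a well held mRNA of *Scx*. *Scx* encodes scleraxis, a basic helix-loop-helix transcription factor that marks tendon and ligament cells and their progenitors. A unique molecular identifier (UMI) tags each captured mRNA molecule, so that PCR copies are counted once. Wells with at least 200 detected genes and at least 3000 UMIs were used, and the classes were defined by *Scx* UMIs alone, with 1 or more in *Scx*-positive and 0 in *Scx*-negative cells. *Scx* itself is therefore described and not tested. Of the 1152 wells at T9, 1111 met both limits, and 441 of these were positive and 670 negative. The whole series holds 4608 wells on 12 plates, of which 4301 met the same limits.

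All cells came from the iPSC-20 line, a single clone from mice that carry the *ScxGFP* reporter. They were taken to mesoderm and then given TGF-β2 at 10 ng/ml. Live single cells were sorted before TGF-β2 (T0) and at T3, T6, and T9 into 3 plates of 384 wells per time point, without selection for GFP, and libraries were made by CEL-Seq2. The same 384 well barcodes served all 12 plates. The second experiment holds bulk RNA from the Achilles tendon of littermate mice aged 2 weeks, 2 wild type (Scx_Wt) and 2 homozygous for loss of *Scx* (Scx_KO). No label says that the plates came from separate cultures. The p-values between classes measure how far the difference within a plate varies from plate to plate, and that variation may be technical.

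Tendon cells, or tenocytes, lay down parallel fibrils of type I collagen. Small leucine-rich proteoglycans such as fibromodulin and keratocan bind these fibrils and bear on their diameter, and tenomodulin is a membrane glycoprotein typical of mature tenocytes. TGF-β ligands induce *Scx* in tendon progenitors, and scleraxis binds DNA at E-boxes, short motifs of the form CANNTG.

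The *Scx*-positive cells numbered 173, 127, and 141 in plates 1, 2, and 3, and the *Scx*-negative cells 202, 246, and 222. The share of positive cells was 39.7% ± 6.09 at T9 (SD, n = 3 plates). It had been 83.5% ± 4.66 at T3 and 80.5% ± 3.95 at T6. With each cell thinned at random to 3000 UMIs, the share at T9 was 25.3% ± 2.67. Of the positive cells, 170 held 1 *Scx* UMI, 87 held 2, and 184 held 3 or more, with a highest count of 52. Many positive cells thus lay at or next to the limit of the rule, and the class was also covered more deeply. The median number of UMIs was 8748 in the positive and 7625.5 in the negative cells. Beside the UMI limit, the lowest well kept had 3039 UMIs and the highest well left out had 2943, and 6 of the 36 wells left out by that limit held *Scx*.

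**Figure D1:**
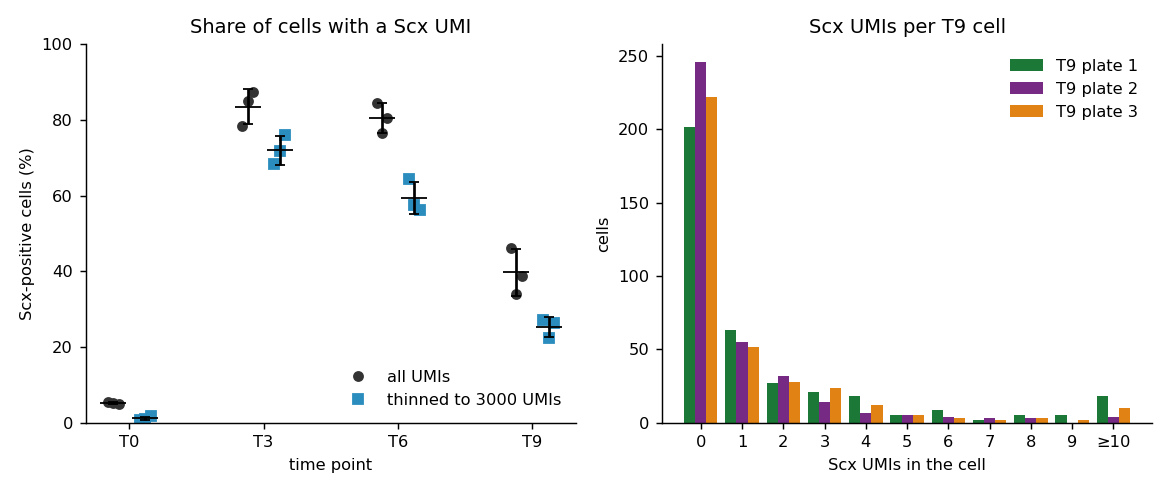
Share of cells with a *Scx* UMI on each plate by time point (left, percent; circles with all UMIs, squares after thinning to 3000 UMIs, bars the mean ± SD of 3 plates) and the number of T9 cells by their *Scx* UMIs on each plate (right). At T9 the 3 plates lay lower than at T3 and T6 on both scales, and 170 of the 441 positive cells held a single UMI.

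Summed over its positive cells, *Scx* stood at 425, 345, and 388 CPM in plates 1 to 3, where CPM (counts per 1000000) gives a gene's UMIs over all UMIs of the same sum. *Scx* (GRCm38, chr15:76457452-76459458, + strand) lies within the span of *Bop1*, a ribosome assembly gene on the opposite strand. *Bop1* was at 8.88 ± 3.58 CPM in the positive and 12.7 ± 4.83 in the negative sums (SD, n = 3), with a log2 fold change of -0.55 between the classes and an adjusted p of 0.694 by edgeR. As a check on free RNA, wells with UMIs of pluripotency or endoderm genes were examined, since cells of those types should lack *Scx*. With 5 or more such UMIs, *Scx* was found in 78 of 208 wells (37.5%) at a median of 10582.5 UMIs, against 363 of the other 903 (40.2%) at a median of 7509. After thinning to 3000 UMIs these shares were 20.2% and 26.5%. Whether the 208 wells held cells of those types was not tested. Their shares thus cannot tell free RNA from *Scx* made in the cell. A stricter set of 32 wells with 10 or more UMIs of a narrower set of genes was chosen after seeing the data. *Scx* was found in 7 of these 32 (21.9%, exact binomial 95% interval 9.28 to 40.0) at a median of 15693 UMIs, and in 434 of the other 1079 (40.2%) at a median of 7939. After thinning to 3000 UMIs the counts were 0 of 32, which allows a share of up to 9.38%, and 281 of 1079 (26.0%). The intervals cover counting error only. Of the 32 wells, 7 were in the positive and 25 in the negative class.

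To compare the classes, UMIs were summed per plate and class, *Scx* was left out, and the 6 sums were fitted with edgeR's quasi-likelihood test with the plate as a block, since both classes of a plate share one library. The positive sums held 1806319, 1047809, and 1238125 UMIs and the negative sums 1859990, 2047005, and 1735016. Genes higher in the positive cells included the tendon genes *Kera*, *Tnmd*, and *Thbs4*, the homeobox gene *Six2*, and *Npy* and *Cpm*. Genes lower in the positive cells included *Osr1*, *Agtr2*, *Sparcl1*, and the type VI collagen chains *Col6a1* and *Col6a2*. Of 10217 genes tested, 165 passed a Benjamini-Hochberg adjusted p of 0.05 (1.61%), 128 higher (1.25%) and 37 lower (0.362%) in the positive cells. The higher genes had a median log2 fold change of 0.71 and the lower genes of -0.84, and 33 and 13 of them differed by more than 2-fold. The sums of the classes did not overlap for 80 of the 165 genes, against 5.79% of all genes tested. The count depended on plates 1 and 3. It was 74 without plate 1 and 284 without plate 3. All 165 genes kept their direction when any single plate was left out. Since 164 of them had the same sign on all 3 plates, that outcome was largely set beforehand. Plate 3 stood apart, since its chi-square against plates 1 and 2, divided by the number of genes, was 23.4 to 35.2, whereas plates 1 and 2 gave 3.30 and 3.35. DESeq2 called 58 genes, all of them among the 165, and 2 were called by edgeR when the plate was left out of the fit.

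**Figure D2:**
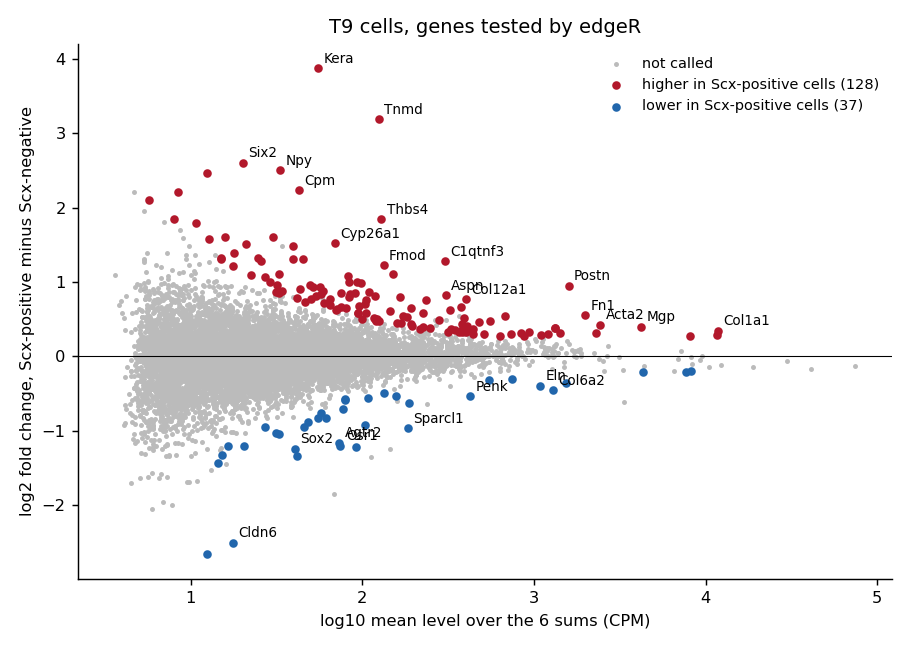
Each point is a gene tested at T9, by its mean level over the 6 sums (log10 of CPM, horizontal) and its log2 fold change between *Scx*-positive and *Scx*-negative cells (vertical). The 128 genes called higher and the 37 called lower are coloured, and *Kera* and *Tnmd* lie at the top with log2 fold changes of 3.87 and 3.19.

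*Kera* encodes keratocan, a keratan sulphate proteoglycan of tendon and cornea (chr10:97606879-97613692). Its level was 107, 116, and 85.6 CPM in the positive and 8.06, 4.40, and 8.65 CPM in the negative sums of plates 1, 2, and 3. The lowest positive sum thus lay far above the highest negative sum, and the log2 fold change was 3.87 (standard error, SE, 0.23, adjusted p = 9.56e-11, edgeR). *Tnmd*, which encodes tenomodulin (chrX:133850980-133865577), was at 254, 265, and 153 CPM in the positive and 43.5, 16.6, and 15.0 CPM in the negative sums. Its log2 fold change was 3.19 (standard error 0.21, adjusted p = 2.22e-06, edgeR), and the classes did not overlap. The mean level of *Tnmd* was 8.94-fold higher in the positive cells.

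The UMIs of these genes came from a minority of the positive cells. *Tnmd* UMIs were found in 22.5% ± 5.37 of the positive and 7.95% ± 3.91 of the negative cells (SD, n = 3 plates). The holding cells differed as well, with a mean of 9.16 *Tnmd* UMIs in 101 positive cells and 2.71 in 52 negative cells. After thinning, the shares were 17.6% ± 3.58 and 4.75% ± 2.33. *Kera* was found in 15.4% ± 1.77 of the positive and 4.43% ± 1.75 of the negative cells. Both shares were higher in the positive class on every plate, and an exact two-sided permutation within the 3 plates gave p = 0.25, the smallest it allows.

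Secreted matrix proteins followed with smaller fold changes. *Thbs4*, which encodes the tendon matrix protein thrombospondin-4, was at 146, 135, and 325 CPM in the positive and 38.2, 44.5, and 84.1 CPM in the negative sums (log2 fold change 1.84 ± 0.13 SE, adjusted p = 9.77e-10, edgeR). *Fmod*, which encodes fibromodulin, was at 140, 150, and 267 CPM against 72.6, 46.9, and 121 CPM, with a log2 fold change of 1.23 (adjusted p = 1.53e-06). The classes did not overlap for either gene. *Postn*, which encodes periostin, rose from a mean of 1094 ± 326 CPM in the negative to 2088 ± 512 CPM in the positive sums (SD, n = 3, log2 fold change 0.95, adjusted p = 3.23e-09, edgeR). *Aspn*, which encodes the proteoglycan asporin, was at 357, 435, and 375 CPM against 211, 190, and 263 CPM, again without overlap.

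The main tendon collagens differed by a smaller ratio that recurred on each plate. *Col1a1* was at 9325, 6818, and 23178 CPM in the positive and 7256, 5232, and 19109 CPM in the negative sums. Plate 3 stood far above plates 1 and 2 in both classes, so that the classes overlapped across plates while each plate gave a higher positive sum. The log2 fold change within plates was 0.34 for *Col1a1* (standard error 0.05, adjusted p = 7.36e-05, edgeR) and 0.29 for *Col1a2* (adjusted p = 0.0016). *Col12a1*, a fibril-associated collagen of tendon, was at 377, 275, and 851 CPM against 199, 168, and 536 CPM, with a log2 fold change of 0.77 (adjusted p = 1.53e-06). *Col3a1* was not called (log2 fold change 0.01, adjusted p = 0.977). Type VI collagen forms beaded microfibrils around cells, and its chains differed in direction. *Col6a2* was at 1063, 669, and 1557 CPM in the positive and 1406, 973, and 2099 CPM in the negative sums, lower on each plate (log2 fold change -0.45, adjusted p = 4.74e-05, edgeR), and *Col6a1* had a log2 fold change of -0.36 (adjusted p = 0.000436). *Col6a3* was at 431, 322, and 512 CPM against 255, 173, and 498 CPM and was not called (log2 fold change 0.54, adjusted p = 0.150).

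Of the 20 genes listed for tenocyte matrix and surface, 17 were tested, and 8 rose (47.1%, against 1.25% of all genes) and 0 fell in the positive cells. Their median log2 fold change was 0.54, against -0.003 over all genes tested. This list and those below were chosen with earlier results of these data known. The share over all genes is not matched for level, so the list shares are descriptive only. The 8 were *Kera*, *Tnmd*, *Thbs4*, *Fmod*, *Aspn*, *Thbs2*, *Col1a1*, and *Col1a2*. Among 15 tested collagens, 5 rose (*Col12a1*, *Col5a2*, *Col11a1*, *Col1a1*, *Col1a2*, 33.3%) and 2 fell (*Col6a1*, *Col6a2*, 13.3%, against 0.362% of all genes). Among 15 tested matricellular genes, 8 rose (53.3%), among them *Tgfbi* (log2 fold change 0.76) and *Fn1* (0.55). *Spp1* fell (log2 fold change -0.94, adjusted p = 0.0136, edgeR), but stood at 0.05 after thinning of the cells to 3000 UMIs and at 1.13 without dividing cells. *Dcn* and *Lum*, proteoglycans of connective tissue at large, were not called, at log2 fold changes of -0.20 (adjusted p = 0.100) and -0.07 (adjusted p = 0.818, edgeR). *Tnc*, which encodes tenascin-C, had a log2 fold change of 0.49 and missed the threshold (adjusted p = 0.104). Elastic fibre genes were mostly not called (11 of 15 tested), with a median log2 fold change of 0.06. In that list *Fbln2*, *Emilin1*, and *Fbn2* rose and *Eln*, which encodes elastin, fell (log2 fold change -0.39, adjusted p = 0.021, edgeR).

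Of 21 listed tendon transcription factors, 18 were tested, 2 rose (11.1%, against 1.25% of all genes), and 0 fell, with a median log2 fold change of 0.11. *Six2*, a homeobox gene, was at 42.6, 26.7, and 33.9 CPM in the positive and 10.2, 2.93, and 4.03 CPM in the negative sums (log2 fold change 2.60 ± 0.31 SE, adjusted p = 9.64e-06, edgeR). *Klf2*, a zinc finger gene, was at 107, 123, and 107 CPM against 60.2, 42.5, and 55.9 CPM (log2 fold change 1.08, adjusted p = 7.36e-05). Both genes kept the classes apart on all plates. *Mkx*, the homeobox gene of tendon known as Mohawk, was at 41.5, 35.3, and 32.3 CPM against 26.3, 24.9, and 23.1 CPM. Its 3 positive sums all lay above the negative sums, but the log2 fold change of 0.56 (standard error 0.21) did not pass the test across all genes (adjusted p = 0.300, edgeR). *Egr1*, an immediate early gene used as a tendon factor, had a log2 fold change of 0.14 (adjusted p = 0.453).

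**Figure D3:**
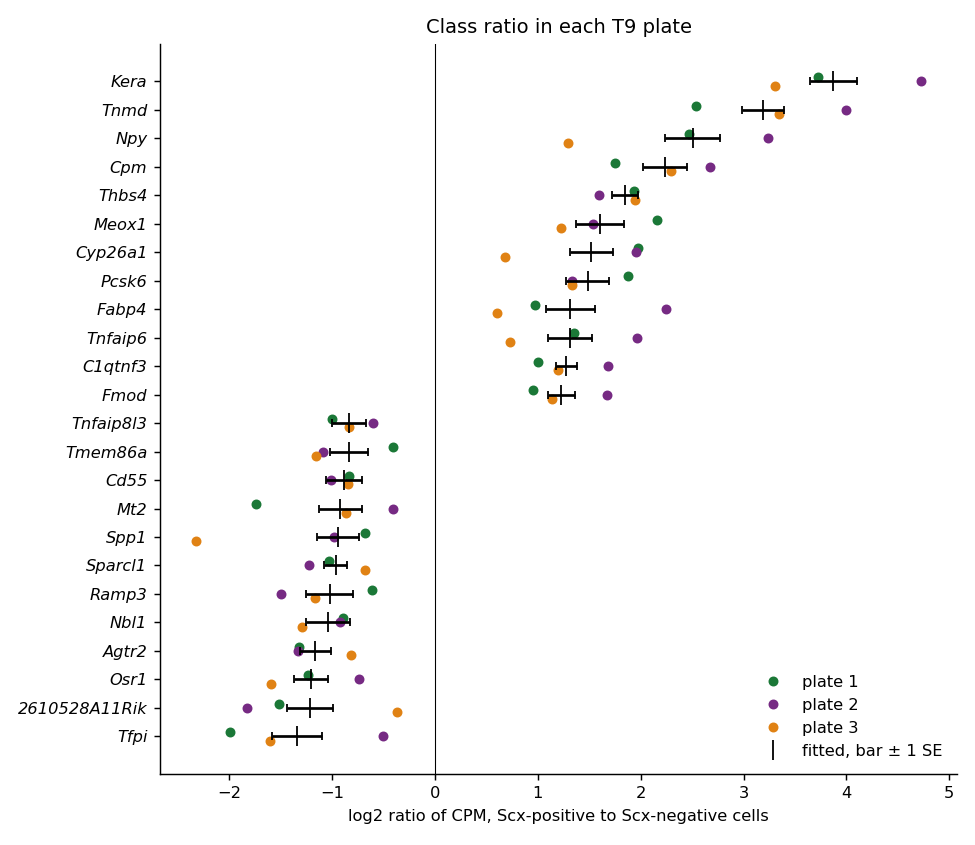
For the 12 genes with the largest rise and the 12 with the largest fall at a mean of 30 CPM or more, each coloured dot is the log2 ratio of CPM between *Scx*-positive and *Scx*-negative cells on a T9 plate, and the black mark is the fitted log2 fold change ± 1 standard error. All 3 plates lie on the same side of 0 for each gene, since that was part of the choice, while the plates spread widely for *Npy* and *Spp1*.

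The other leading genes were of mixed roles. *Npy*, which encodes neuropeptide Y, was at 107, 50.6, and 11.3 CPM in the positive and 19.4, 5.37, and 4.61 CPM in the negative sums. The levels differed widely between plates, and the classes overlapped (log2 fold change 2.51, adjusted p = 1.68e-06, edgeR). *Cpm*, which encodes the membrane enzyme carboxypeptidase M, was at 48.7, 71.6, and 90.5 CPM against 14.5, 11.2, and 18.4 CPM (log2 fold change 2.23, adjusted p = 4.05e-07, edgeR). *C1qtnf3*, a secreted protein of the C1q family, was at 487, 426, and 371 CPM against 244, 133, and 162 CPM (log2 fold change 1.28, adjusted p = 1.77e-07). The classes did not overlap for *Cpm* or *C1qtnf3*. The same held for *Meox1*, a somite homeobox gene (log2 fold change 1.60, adjusted p = 0.000182), and *Tnfaip6*, which encodes a hyaluronan-binding protein (1.31, adjusted p = 0.000726, edgeR). *Pcsk6*, a proprotein convertase, rose by a log2 fold change of 1.48 (adjusted p = 7.71e-05), and *Fabp4*, a fatty acid carrier, by 1.31 (adjusted p = 0.00362).

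Retinoic acid is made by aldehyde dehydrogenases such as *Aldh1a2* and broken down by *Cyp26a1*. *Cyp26a1* was at 110, 112, and 83.2 CPM in the positive and 28.0, 28.8, and 51.9 CPM in the negative sums, without overlap (log2 fold change 1.52 ± 0.21 SE, adjusted p = 0.000594, edgeR). It was the only one called of 14 retinoic acid genes tested (7.14%, against 1.25% of all genes called higher). *Aldh1a2* was at 31.6, 12.4, and 38.0 CPM against 32.3, 30.3, and 92.2 CPM. It was lower on each plate, but by little on plate 1, and its log2 fold change of -0.81 did not pass the test (adjusted p = 0.0935). *Aldh1a2* UMIs were found in 10.8% ± 4.64 of the positive and 14.8% ± 3.25 of the negative cells (SD, n = 3; exact permutation p = 0.25). *Crabp1*, which encodes a carrier of retinoic acid, had a log2 fold change of -0.14 and was not called.

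Of 14 tested ligands, receptors, and Smads of the TGF-β pathway, *Tgfb2*, *Tgfb3*, and *Acvr1* rose (21.4%, against 1.25% of all genes) and none fell. The list's median was 0.15. *Tgfb2*, the ligand used in the culture, was at 57.6, 72.5, and 126 CPM in the positive and 30.6, 43.5, and 97.4 CPM in the negative sums, higher on each plate but with overlap across plates (log2 fold change 0.64 ± 0.16 SE, adjusted p = 0.0321, edgeR). *Tgfb3* had a log2 fold change of 0.58 (adjusted p = 0.0128). *Tgfbr2*, the type II receptor, was not called (log2 fold change -0.11). Of 19 tested TGF-β response genes, 3 rose (*Tgfbi*, *Junb*, and *Cdkn1a*), a share of 15.8%. *Smad7*, a classical target, was not called at a log2 fold change of 0.03.

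Cartilage and smooth muscle genes were also examined, since TGF-β bears on both fates. *Sox9*, the chondrocyte transcription factor, was at 88.6, 55.4, and 178 CPM in the positive and 47.3, 48.4, and 83.6 CPM in the negative sums (log2 fold change 0.79 ± 0.16 SE, adjusted p = 0.00631, edgeR). The classes overlapped across plates, and on plate 2 they differed little. *Sox9* UMIs were in 28.4% ± 5.27 of the positive and 20.9% ± 4.49 of the negative cells (exact permutation p = 0.25, n = 3). *Acan* and *Col2a1*, which encode the matrix of cartilage, were too low to test, with 12 and 2 UMIs in all positive and 1 and 3 UMIs in all negative cells. *Acta2*, smooth muscle actin, was at 2762, 2222, and 3383 CPM against 2133, 1609, and 2498 CPM, with a log2 fold change of 0.43 (adjusted p = 3.35e-05, edgeR). Of 14 tested smooth muscle genes, *Acta2* and *Tagln* rose (14.3%, against 1.25% of all genes) and none fell. *Acta2* UMIs were in 93.2% ± 4.93 of the positive and 91.1% ± 4.27 of the negative cells, so that nearly all cells of both classes held them. *Hmga2* (log2 fold change 0.23) and *Sox11* (0.14) were not called.

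Among the genes lower in the positive cells, *Osr1*, a zinc finger gene of connective tissue progenitors, was at 37.6, 50.6, and 46.0 CPM in the positive and 88.7, 84.5, and 139 CPM in the negative sums (log2 fold change -1.20 ± 0.16 SE, adjusted p = 5.05e-05, edgeR). *Agtr2*, a receptor for angiotensin II, was at 39.3, 46.8, and 49.3 CPM against 98.4, 118, and 87.0 CPM (log2 fold change -1.16, adjusted p = 4.74e-05). *Sparcl1*, a matricellular gene, was at 107, 109, and 161 CPM against 220, 254, and 258 CPM (log2 fold change -0.97, adjusted p = 5.93e-06). For all 3 genes the highest positive sum lay below the lowest negative sum. *Nbl1*, *Ramp3*, *Cd55*, *Tmem86a*, and *2610528A11Rik* were also lower without overlap, with log2 fold changes between -1.22 and -0.84. *Tnfaip8l3* (-0.83, adjusted p = 0.0043) and *Mt2*, a metallothionein (-0.92, adjusted p = 0.0479), were lower on each plate. *Penk*, which encodes proenkephalin, and *Dkk2*, a Wnt pathway modulator, were lower on each plate with log2 fold changes of -0.54 and -0.56 and adjusted p-values of 0.000305 and 0.0128 (edgeR).

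Some of the lower genes mark other cell types. *Sox2*, a pluripotency factor, was at 30.4, 42.9, and 0 CPM in the positive and 82.3, 87.4, and 0 CPM in the negative sums, so that its UMIs came from plates 1 and 2 alone. The 8 genes of the pluripotency list summed to between 0 and 241 CPM in the positive and between 0.576 and 327 CPM in the negative sums. *Sox2* was the only one called of 6 tested (16.7%, against 0.362% of all genes called lower). The parietal endoderm list summed to between 6769 and 11782 CPM against 6255 and 11673 CPM, most of it from *Sparc*, which was at 5538 to 10537 CPM in the positive sums. Without *Sparc* the list summed to 854, 1231, and 1245 CPM in the positive and 1518, 1227, and 1690 CPM in the negative sums of plates 1, 2, and 3. *Tfpi* was the only one called of 13 tested (7.69%), of which 12 had a negative sign, with a median log2 fold change of -0.31. Without the 32 wells named above, the call of *Sox2* was lost (log2 fold change -0.17, adjusted p = 0.960), as was that of *Tfpi* (-0.55, adjusted p = 0.557), *Mt2* (-0.33, adjusted p = 0.763), *2610528A11Rik* (-1.29, adjusted p = 0.0639), and *Apoe* (0.007, adjusted p = 0.997, edgeR), and *Spp1* turned to 0.92 (adjusted p = 0.789). The values of *Kera* (3.79), *Tnmd* (3.15), *Osr1* (-1.27), *Agtr2* (-1.29), and *Sparcl1* (-1.03) stayed close to those above. Of the 128 higher genes, 119 were called again without these wells, and of the 37 lower genes, 25. These 32 wells were chosen after seeing the data. The planned setting left out the 208 wells with 5 or more pluripotency or endoderm UMIs. There, 92 of 126 higher genes tested and 20 of 34 lower genes tested were called again. Of those 34 lower genes, 31 kept their direction.

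No gene of the neural list was called. The 8 genes summed to between 146 and 251 CPM in the positive and between 263 and 328 CPM in the negative sums, with 2 tested and *Sox1* at 0 in all. Nearly all of this was *Stmn2*, at 182, 141, and 235 CPM against 296, 324, and 247 CPM (log2 fold change -0.64, adjusted p = 0.297, edgeR). The endothelial list summed to between 48.7 and 101 CPM against 66.1 and 164 CPM, with *Cdh5*, *Tie1*, and *Cldn5* at 0. *Cldn6* was the only epithelial gene called of 4 tested (25.0%, against 0.362% of all genes called lower), with a log2 fold change of -2.51. The epithelial list summed to between 8.08 and 127 CPM against 42.7 and 126 CPM. Muscle genes summed to between 2.86 and 357 CPM against 3.91 and 193 CPM, and no gene of that list or of the macrophage list was called. The macrophage list summed to between 4.04 and 7.20 CPM against 3.23 and 13.8 CPM, with *Adgre1* at 0. In the adipocyte list *Fabp4* rose and *Adipoq* was at 0. The part of these other cells in the remaining calls was not tested.

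To compare genes at equal depth, every cell was thinned to 3000 UMIs, while the classes were still set by *Scx* among all UMIs. Depth could thus still bear on which cells were positive. The log2 fold changes then were 3.72 for *Kera*, 3.03 for *Tnmd*, 1.54 for *Thbs4*, 1.12 for *Fmod*, 0.28 for *Col1a1*, -1.06 for *Osr1*, -1.18 for *Agtr2*, and -0.47 for *Col6a2*. Of the 165 genes, 150 could be tested after thinning, and 149 kept their direction. The number of calls was 77 of 6566 genes tested. With the classes also formed after thinning, 91 of 6487 genes were called. Of the 165 genes, 149 could then be tested, and 62 were called again. With negative cells drawn to match the depth of the positive cells, 136 genes were called, and 164 of 164 tested kept their direction. These settings reuse the cells from which the 165 genes were called, so the kept directions are no separate support.

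The thinned cells were also split by the number of *Scx* UMIs among the 3000, for genes chosen after their values were seen. There were 830 cells with 0, 176 with 1, 52 with 2, and 53 with 3 or more *Scx* UMIs. The level of *Tnmd* was 43.4 ± 37.1 CPM in cells with 0, 199 ± 94.97 with 1, 353 ± 1.34 with 2, and 348 ± 54.3 with 3 or more (SD, n = 3 plates). The mean of *Tnmd* lay higher at each step up to 2 UMIs, but the upper groups held only 55 and 54 *Tnmd* UMIs in all. The SD of 1.34 is thus smaller than counting error. The groups rest on the same *Scx* UMIs as the classes, so they give no separate support for the class difference. *Kera* was at 19.2 ± 4.72, 83.9 ± 52.8, 228 ± 65.0, and 182 ± 115 CPM in the same order, and the upper groups overlapped. *Col6a2* went down from 1464 ± 554 to 1146 ± 403, 1016 ± 209, and 738 ± 334 CPM. *Sparcl1* was at 253 ± 54.6, 137 ± 24.6, 252 ± 132, and 47.5 ± 18.9 CPM. Nor did *Thbs4* and *Agtr2* step in the same direction throughout. *Thbs4* was at 74.5 ± 25.7, 116 ± 89.1, 375 ± 97.0, and 188 ± 27.2 CPM, and *Agtr2* at 96.1 ± 12.8, 56.0 ± 22.2, 18.5 ± 32.1, and 70.2 ± 109 CPM. For *Osr1*, 0 UMIs were counted in the 53 cells with 3 or more *Scx* UMIs, a count that allows up to 3, and 220 in the 830 cells with 0.

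**Figure D4:**
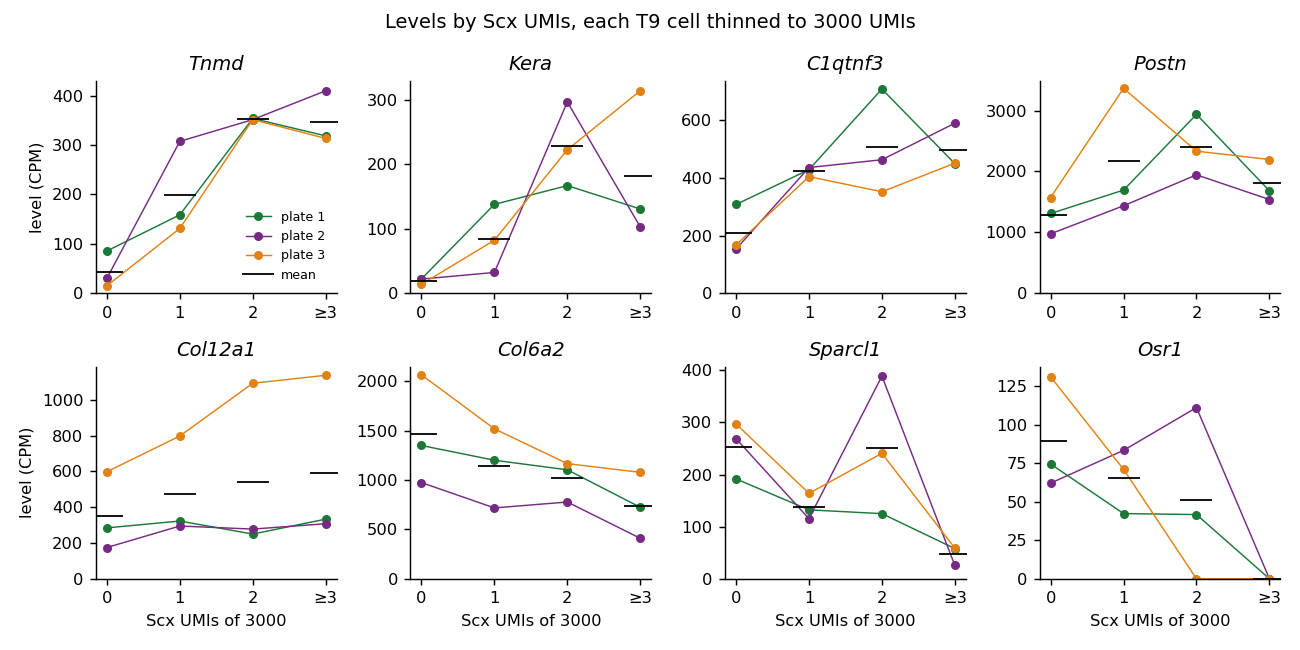
Level (CPM) of 8 genes in T9 cells thinned to 3000 UMIs, by the number of *Scx* UMIs left in the cell, with a line for each plate and a dash for the mean of the 3 plates. *Tnmd* reached 353 CPM at 2 *Scx* UMIs, and *Col6a2* went from 1464 CPM at 0 to 738 CPM at 3 or more, with few cells (52 and 53) in the upper groups.

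The same classes were formed at T3 (868 positive and 170 negative cells) and T6 (869 and 212). At T3, 39 of 8799 genes tested were called (0.443%), 16 higher (0.182%) and 23 lower (0.261%) in the positive cells. At T6 they were 52 of 10451 (0.498%), 41 higher (0.392%) and 11 lower (0.105%). The negative sums held 353963 to 411109 UMIs at T3 and 512076 to 703306 at T6, against 1735016 to 2047005 at T9. With such unlike depth, the numbers of calls do not measure how the class difference changed with time. Of the 165 genes of T9, 26 of 153 tested were called at T6, and 146 had the same direction there. At T3 they were 9 called of 139 tested, and 101 had the same direction. The 128 genes higher at T9 had a median log2 fold change of 0.50 at T6 and 0.33 at T3, against medians of -0.01 and 0.004 over all genes. *Fmod* was higher in positive cells at all times, with log2 fold changes of 2.61 at T3 (adjusted p = 0.0194), 1.86 at T6 (adjusted p = 0.000109), and 1.23 at T9. *Tnmd* stood at 9.66 ± 0.817 CPM in the positive and 0.942 ± 1.63 in the negative sums of T3, where it was too low to test, and at 82.3 ± 35.7 and 2.16 ± 0.854 CPM at T6 (SD, n = 3, log2 fold change 5.15, adjusted p = 4.89e-07, edgeR). *Kera* was at 9.39 ± 4.89 against 14.6 ± 13.1 CPM at T3 and at T6 stood at 48.1 ± 17.6 against 18.2 ± 21.9 CPM (adjusted p = 0.418). *Sparcl1* was lower in positive cells at T6 as well (log2 fold change -0.97, adjusted p = 0.0423), while *Osr1* had -0.90 there (adjusted p = 0.0526).

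Whether the class difference itself changed with time was tested as an interaction over the 18 sums of T3, T6, and T9. Between T9 and T3 it differed for 11 of 11726 genes (0.0938%), upward for 9 (0.0768%) and downward for 2 (0.0171%). *Eln* stood at 51.8 ± 14.6 CPM in positive and 22.1 ± 11.4 in negative sums at T3, but at 925 ± 467 and 1240 ± 723 CPM at T9, a difference of differences of -1.63 (standard error 0.27, adjusted p = 0.00765, edgeR). *Acta2* moved the other way. It was at 777 ± 83.4 against 1151 ± 398 CPM at T3 and higher in the positive cells at T9, with a difference of 0.94 (standard error 0.14, adjusted p = 0.00919). *Cpm* was not called at T3 (49.1 ± 12.8 against 42.4 ± 23.3 CPM), and its class difference at T9 was larger by 1.99 (adjusted p = 0.0417). *S100a6*, a calcium-binding protein gene, was lower in positive cells at T3 (49.5 ± 10.9 against 126 ± 59.1 CPM) and not called at T9 (448 ± 106 against 455 ± 99.6), a difference of 1.28 (adjusted p = 0.00507). The count of 11 fell to 0 without T3 plate 2 and rose to 28 and 21 without T3 plates 1 and 3, and it was 6 without T9 plate 3. Between T9 and T6 edgeR called 0 genes and DESeq2 called 0, with 373 genes at an unadjusted p under 0.05 (edgeR). Leaving out T6 plate 2 gave 10 calls. In data simulated for the interaction of T9 with T3, 34.0% of genes changed 3-fold and 17.2% of those changed 2-fold were recovered among 11720 genes. The simulation was a single draw with the same spread for all genes, so recovery in the measured data may differ.

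In Achilles tendon, *Scx* itself was counted at 103 and 81.3 CPM in the 2 Scx_Wt and 23.1 and 25.1 CPM in the 2 Scx_KO samples, so that reads remained in Scx_KO at a lower level. Of 14601 genes tested, 660 were called (4.52%), of which 338 were lower (2.31%) and 322 higher (2.21%) in Scx_KO. The count of 660 was 439 without the first Scx_Wt sample. Bulk RNA cannot tell fewer cells of a type from less RNA per cell. Of the 128 genes higher in *Scx*-positive cells at T9, 124 were tested in tendon, and 19 were lower (15.3%) and 12 higher (9.68%) in Scx_KO. Their median log2 fold change between Scx_KO and Scx_Wt was -0.07, against 0.009 over all 9540 genes tested in both. Of those 9540 genes, 1.98% were lower and 2.02% higher in Scx_KO. Of the 37 genes lower in the positive cells, 30 were tested, and 1 was lower (3.33%) and 1 higher (3.33%) in Scx_KO.

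Of the 12 genes with the largest rise at T9 (at a mean of 30 CPM or more), 11 were tested in tendon. In Scx_KO, 6 were lower (54.5%) and 1 higher (9.09%), against 1.98% and 2.02% of the 9540 genes tested in both. *Tnmd* was at 1460 and 1257 CPM in Scx_Wt and 268 and 264 CPM in Scx_KO (log2 fold change -2.30 ± 0.20 SE, adjusted p = 3.99e-05, edgeR). *Kera* was at 596 and 613 against 231 and 223 CPM (-1.37, adjusted p = 0.000692). *Fmod* was at 5544 and 4925 against 1383 and 1358 CPM (-1.89, adjusted p = 0.000869). In each of these genes both Scx_KO samples lay below both Scx_Wt samples. *Cpm* (-1.78, adjusted p = 0.000158), *Cyp26a1* (-2.19, adjusted p = 0.000612), and *C1qtnf3* (-1.03, adjusted p = 0.00281, edgeR) were lower as well. *Thbs4* was at 1572 and 1495 against 937 and 917 CPM, and its log2 fold change of -0.68 missed the threshold (adjusted p = 0.0890). *Col1a1* had a log2 fold change of -0.96 and was not called either (adjusted p = 0.156), while *Col12a1* was (-0.73, adjusted p = 0.0424). *Mkx*, not called at T9, was lower in Scx_KO (-1.70, adjusted p = 0.000145).

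Other genes higher in the positive cells were higher in Scx_KO tendon. *Postn* was at 1129 and 665 CPM in Scx_Wt and 2246 and 2976 CPM in Scx_KO (log2 fold change 1.60 ± 0.28 SE, adjusted p = 0.00721, edgeR). *Aspn* (1.36, adjusted p = 0.0211) and *Meox1* (1.07, adjusted p = 0.00281) went the same way. *Eln*, lower in the positive cells, was at 1510 and 746 against 4635 and 6133 CPM (2.32, adjusted p = 0.00272). *Osr1*, *Agtr2*, and *Sparcl1* were not called in tendon, with log2 fold changes of 0.31, -0.04, and -0.10. The tendon holds many cell types and is a tissue, so these values stand beside those of the cultured cells without a joint test.

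**Figure D5:**
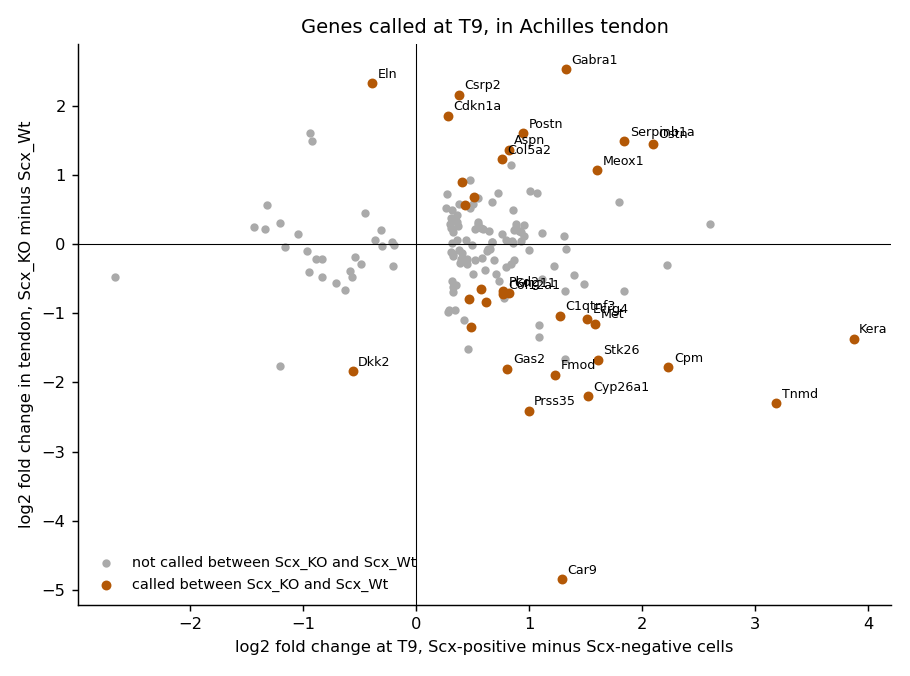
Each point is a gene called at T9 that was also tested in tendon, by its log2 fold change between *Scx*-positive and *Scx*-negative T9 cells (horizontal) and between Scx_KO and Scx_Wt Achilles tendon (vertical). Of the genes right of 0, 19 were called lower and 12 higher in Scx_KO, and *Tnmd* lies at 3.19 and -2.30. Of all 9540 genes tested in both, 1.98% were called lower and 2.02% higher.

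The promoters of the leading genes were searched for E-boxes in RefSeq sequence (GRCm38.p6) from 250 bases before to 50 bases after each start. CANNTG, which reads the same motif on both strands, was present in 61.5% of the 117 promoters of 94 genes higher in the positive cells. It was present in 61.6% of 9989 promoters of 7777 genes tested at T9, in 72.3% of all 32851 promoters, and in 54.8% of 31 promoters of 24 lower genes. Among its single forms, CAGCTG was in 15.4% of promoters of the higher genes and 14.5% of those of all genes tested. CATCTG or its reverse complement was in 15.4% and 10.6%. These windows of *Kera*, *Tnmd*, *Npy*, *Cpm*, *Cyp26a1*, *Pcsk6*, and *Six2* held no CANNTG. Those of *Postn* and *Col1a2*, also searched, held none either. Sequence outside the windows was not searched. The paper cites earlier work in which scleraxis activated *Tnmd* through E-boxes in its 5′ flanking region, so the absence covers these windows only. The matches in the leading genes that had them, and in *Tgfb2*, are shown with 12 bases on each side, 5′ to 3′ on the strand of the gene, with the motif in capitals. They lie at chr13:92794916-92794945 (*Thbs4*, - strand), chr2:52037955-52037984 and chr2:52038078-52038107 (*Tnfaip6*), chr15:10952182-10952211 (*C1qtnf3*), chr1:134037053-134037082 (*Fmod*), and chr1:186706023-186706052 (*Tgfb2*, - strand).
Thbs4, 115 bases before the start: cgctcttcctggCAAATGggggatcctggc
Tnfaip6, 146 bases before the start: tggttgccaatgCAAATGagtcagagggct
Tnfaip6, 23 bases before the start: agatgtggaaacCAGATGtttcagccgcat
C1qtnf3, 138 bases before the start: tatgaaccccacCAACTGgacgccgtgcac
Fmod, 189 bases before the start: tcactagtctgaCATCTGgctacaaggggt
Tgfb2, 51 bases before the start: gttgaaggcaaaCACGTGgtttggggagca
The sequences differ in the middle bases of the motif, and the *Fmod* match and the nearer *Tnfaip6* match are CATCTG or its reverse complement. *Thbs4* and *C1qtnf3* each held a further match close to the end of the window. A match is a description of letters and says nothing of binding in these cells.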

How the data were processed

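Single cells from 12 plates and 4 bulk tendon samples were used. For the cells, the authors trimmed reads, aligned them to GRCm38 with HISAT2 2.2.1, assigned them with featureCounts, and deposited UMI counts per gene and well made with UMI-tools 1.0.1, without normalization or a filter on cells. For tendon they deposited read counts per gene made with HISAT2 2.0.4 and featureCounts 1.5.0. The annotation release is not given in the sources used here. Gene positions are from GENCODE vM21 and promoters from RefSeq, both on GRCm38. Symbols were found for 29528 of 29629 genes, and 3 identifiers outside Ensembl (0.0642% of UMIs) were left out of sums and tests.

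UMIs of wells with at least 200 genes and 3000 UMIs were summed per plate and *Scx* class. Doublets were gated out by the authors' sort, and no caller was run. Sums were fitted with edgeR 4.0.16 in R 4.3.3 (filterByExpr, TMM, robust quasi-likelihood F test, plate and class as terms, *Scx* left out), with Benjamini-Hochberg adjustment at 0.05 over all genes tested. The study states no test between *Scx* classes, and since the class was cut from the same cells, the test covers every gene but *Scx*. The plate block comes from the design, as both classes of a plate share one library. Deviations from the class means correlated by 0.346, 0.427, and 0.678 within plates 1, 2, and 3. Interactions used plate and class within time point over 18 sums, and tendon was fitted by genotype. Standard errors are the absolute log2 fold change over the square root of F. CPM are UMIs (or reads) of a gene per 1000000 of the same sum. CPM from UMIs are not scaled by transcript length, so levels were compared within a gene only. Shares of cells used an exact permutation test of plates (scipy 1.17.1, numpy 2.4.6, pandas 2.3.3, Python 3.11.15), with figures from matplotlib 3.10.9. The tendon samples held 11188270 to 12398560 counts.

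Named genes were the 12 largest changes in each direction among called genes at a mean of 30 CPM or more with one sign on all plates, members of lists fixed for this comparison, and the genes the study names for its cells. For the interactions they were the 6 largest in each direction. *Acta2* and *Cdkn1a* were also named there, and *Apoe*, *Cldn6*, and the genes of the sets of cells by *Scx* UMIs were chosen after their values were seen. The members and lists were chosen with earlier results of these data known. *Comp*, *Snorc*, *Bmp6*, *Nkx3-2*, and *mt-Atp6* were not analysed here. Alternatives were DESeq2 1.42.0, RLE size factors, no filter, no block, leaving out each replicate, thinning, depth matching, other limits on wells or *Scx* UMIs, and leaving out dividing or other cells. In simulated data for T9 positive against negative cells, 76.0% of genes changed 2-fold and 97.9% of those changed 3-fold were recovered among 10153 genes, with 7 false calls. Each simulation was a single draw with the same spread for all genes. Recovery and false calls in the measured data may therefore differ.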

Additional observations from a re-analysis of the deposited data

Results flagged for a closer look

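The difference between *Scx*-positive and *Scx*-negative cells at T9 was set against that at T3, and the test of this change (edgeR interaction) passed for 11 genes, 10 of them at a mean of 30 CPM or more. On the log2 scale, the class difference at T9 minus that at T3 was 2.36 for *Pdlim1* (adjusted p = 0.0417), 1.99 for *Cpm* (adjusted p = 0.0417), 1.73 for *Ostf1* (adjusted p = 0.0146), 1.28 for *S100a6* (adjusted p = 0.00507), 1.10 for *Ndufa4l2* (adjusted p = 0.00765), 0.94 for *Acta2* (adjusted p = 0.00919), and 0.69 for *Cdkn1a* (adjusted p = 0.0113). *Pdlim1*, which encodes a PDZ and LIM domain protein of the actin cytoskeleton, was at 7.60 ± 1.30 CPM in the positive and 51.6 ± 31.5 CPM in the negative sums of T3, and at 29.0 ± 2.13 and 37.5 ± 7.62 CPM at T9 (SD, n = 3 plates). *Ostf1* was at 20.4 ± 0.558 against 59.2 ± 21.9 CPM at T3 and 65.5 ± 8.74 against 57.4 ± 12.6 CPM at T9. The value was -1.63 for *Eln* and -1.19 for *Gm28322* (adjusted p = 0.00765 for both), and *Gm28322*, a gene model of unknown role, was at 141 ± 109 against 88.7 ± 50.2 CPM at T3 and 127 ± 63.5 against 186 ± 108 CPM at T9. For *Fabp4* the fitted value of 7.46 (adjusted p = 0.0146) depends on the prior count, since the positive sums of T3 held 0 UMIs. All of these calls were absent without T3 plate 2.

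Outside the genes compared, 3 entries with identifiers that are not of Ensembl held 4268 UMIs in the T9 cells. They stood at 391, 441, and 511 CPM in the positive and 373, 427, and 518 CPM in the negative sums of plates 1, 2, and 3, and what they stand for is not given in the sources used here.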

How the results depend on the processing

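The T9 comparison called 165 genes. DESeq2 called 58, all among the 165, and 2 were called with no replicate block, in which the pairing of the classes on a plate is ignored. Thinning to 3000 UMIs gave 77 calls of 6566 genes tested with classes from all UMIs and 91 of 6487 with classes from the thinned UMIs. Leaving out each replicate gave 74 to 284, and the other settings stayed within 1.5 times. For T9 against T3 (11 calls), no filter on low counts gave 75, no replicate block 0, thinned classes 24, and leaving out each replicate 0 to 28. For T9 against T6 (0 calls), no filter gave 9 and leaving out each replicate 0 to 10. For tendon (660 calls), no filter gave 1367 and leaving out each replicate 439 to 717. A replicate block there gave 1282, but the numbers share no pairing in the labels, and the deviations of same-numbered samples correlated by 0.0845. The mean differences in the shares of cells kept their direction after thinning for *Tnmd*, *Sox9*, *Aldh1a2*, and *Acta2*, but for *Acta2* plate 2 turned (70.9% of positive against 73.6% of negative cells, exact permutation p = 0.75). The causes of these changes were not tested, apart from the smaller numbers of genes or samples that some settings leave.

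Some genes with small or variable differences changed sign. At T9 with cells thinned and classes from all UMIs, the log2 fold change was 0.05 for *Spp1*, -0.0049 for *Sox11*, 0.053 for *S100a6*, 0.00087 for *Lum*, and 0.015 for *Tgfbr2*. With classes from thinned UMIs it was -0.17 for *Hmga2*, -1.9e-05 for *Sox11*, -0.0041 for *Col3a1*, 0.046 for *Tgfbr2*, and -0.26 for *Rrm2*. Without wells with 5 or more pluripotent or endoderm UMIs it was 0.82 for *Spp1*, -0.013 for *Sox11*, and -0.042 for *Col3a1*. Without the 32 wells of the report, a setting chosen after seeing the data, it was 0.92 for *Spp1* and -0.061 for *Col3a1*. Without dividing cells it was 1.13 for *Spp1*, 0.051 for *S100a6*, and -0.0083 for *Col3a1*. With positive cells from 2 *Scx* UMIs it was 0.027 for *S100a6* and -0.24 for *Smad7*, with a minimum of 5000 UMIs -0.015 for *Smad7*, with depth matching -0.036 for *Col3a1*, and with no filter -0.0013 for *Col3a1*. Leaving out each plate gave -0.094 to 0.067 for *S100a6*, -0.056 to 0.065 for *Col3a1*, and -0.13 to 0.27 for *Smad7*. In tendon, leaving out each sample gave -0.077 to 0.83 for *Osr1*, -0.39 to 0.40 for *Agtr2*, -0.90 to 2.46 for *Spp1*, -0.88 to 0.23 for *Tnfaip8l3*, -1.06 to 0.73 for *Egr1*, -0.36 to 0.66 for *Sox9*, -0.44 to 0.27 for *Aldh1a2*, and -0.19 to 0.043 for *Tgfb2*. Of these genes, *Spp1*, *Sox9*, *Rrm2*, *Tgfb2*, *Osr1*, *Agtr2*, and *Tnfaip8l3* were called at T9, and none of those given for tendon was called there.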

Other observations

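*Hif1a* encodes the oxygen-regulated subunit of the transcription factor HIF-1 and was chosen after its values were seen. It was at 219, 258, and 224 CPM in the *Scx*-positive and 138, 135, and 173 CPM in the *Scx*-negative sums of plates 1, 2, and 3. The classes did not overlap, and the log2 fold change was 0.66 (standard error 0.11, adjusted p = 0.000594, edgeR). Of 20 tested genes of glycolysis and hypoxia, *Car9*, a carbonic anhydrase (log2 fold change 1.29, adjusted p = 0.00345), and *Slc2a1*, a glucose transporter (0.54, adjusted p = 0.0244), rose (10.0%, against 1.25% of all genes tested) and 0 fell. *Ndufa4l2*, a mitochondrial protein gene, had a log2 fold change of 0.31 (adjusted p = 0.0152). Of 12 tested genes encoded by the mitochondrial genome, *mt-Nd1*, *mt-Nd5*, and *mt-Nd2* fell, with log2 fold changes of -0.21, -0.21, and -0.19, and all 12 had a negative sign. The share called lower was 25.0%, against 0.362% of all genes tested. These genes took 7.88%, 7.74%, and 4.90% of UMIs in the positive and 9.04%, 9.08%, and 5.10% in the negative sums of plates 1, 2, and 3.

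Of all genes tested, 1.25% were called higher and 0.362% lower, against which the counts of the lists are to be read. Of 14 tested metalloproteinases and inhibitors, *Timp1* (log2 fold change 0.70), *Timp2* (0.35), and *Mmp2* (0.30) rose (21.4%) and 0 fell. Of 18 tested collagen processing genes *Pcolce* rose, of 5 hyaluronan genes *Tnfaip6*, of 13 YAP and mechanical response genes *Ccn1*, and of 18 focal adhesion and integrin genes none. Of 8 tested small leucine-rich proteoglycans *Kera*, *Fmod*, and *Aspn* rose, and of 5 cartilage genes *Sox9* and *Col11a1*. In the fibroblast list of 16 tested genes, *Postn*, *Fn1*, and *Vim* rose and *Cd34* and *Agtr2* fell, and of 8 mesenchymal progenitor genes *Meox1* rose.

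In signalling lists, *Fstl1* rose among 12 tested genes of BMP, GDF, and activin, *Igf2* among 11 of the IGF system, and *Dkk3* rose and *Dkk2* fell among 12 of Wnt signalling. None of 13 FGF, 4 Hedgehog, or 7 Notch pathway genes was called. None of 23 cell division genes was called either, and of 20 S phase genes *Rrm2* rose (log2 fold change 0.63, adjusted p = 0.0218, edgeR), with a value of -0.26 when classes came from thinned UMIs. *Cdkn1a* rose among 9 apoptosis and p53 genes, *Ifi27* among 8 interferon response genes, and *Junb* and *Fos* among 18 genes of dissociation and stress.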
